A study of Mus musculus with 2 samples.

Results

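The collagen gene family was followed in single-cell RNA sequencing of mouse periodontal ligament, the connective tissue that anchors the tooth root to alveolar bone. The members are 39 genes for collagen alpha chains, taken by symbol from the 32285 genes of the count tables. They comprise 11 fibrillar chains, 6 type IV (basement membrane) chains, 5 type VI (beaded filament) chains, 7 FACIT chains (fibril-associated collagens with interrupted triple helices), 3 network chains of types VIII and X, 2 multiplexins, 3 transmembrane collagens, the anchoring fibril chain Col7a1 and Col28a1. A further 5 collagen chain symbols in the gene list were not members.

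Both groups came from male C57BL/6J mice, 8 weeks old. In the orthodontic tooth movement (OTM) group a mesial force of 10 g had acted on the upper left first molar for 6 days, and the unloaded right side gave the control group. Tissue from the roots and sockets of 5 mice was pooled for each group, dissociated with collagenase and trypsin, and captured with 10x Genomics 3′ chemistry, so each group is 1 library and no spread between mice can be estimated. The labels do not say whether both sides came from the same mice.

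Collagens are triple helices of 3 alpha chains, made in the endoplasmic reticulum with hydroxylated prolines and lysines, secreted, trimmed and cross-linked. Fibrillar collagens I and III form the main rope-like fibres of the periodontal ligament, with collagens V and XI inside the fibrils and FACIT collagens on their surface. Collagen VI forms beaded filaments around cells, collagen IV the sheet of basement membranes, and collagens XV and XVIII (the multiplexins) link basement membranes to the matrix beneath. The ligament is known for its rapid turnover of fibrillar collagen.

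After filtering, 348 control and 1412 OTM cells remained, with 5593726 and 35518568 unique molecular identifiers (UMIs, 1 per captured RNA molecule) and medians of 14877 and 19583 UMIs per cell. No barcode was shared between the libraries. Cells were clustered without any collagen gene and classes were named from marker lists without collagens, so the classes do not rest on the members. Fibroblast-like cells numbered 119 in the control and 574 in the OTM library, osteoblast lineage-like cells 34 and 89, and mural-like cells (pericytes and smooth muscle) 6 and 26. These 3 classes together are called stromal cells, 159 and 689 in number. There were also 14 and 203 endothelial-like and 20 and 126 epithelial-like cells. Clusters that got no name held 65 control cells (18.7%) and 102 OTM cells (7.22%), and these count in whole-library sums and shares. Fibroblast-like cells had 3 of 16 fibroblast markers at 0 in the control and none in the OTM library, and their summed endothelial markers were at 40.5 and 27.5 CPM (UMIs of a gene per 1000000 UMIs of the class). In the same cells 7 chondrocyte markers summed to 213 and 71.0 CPM, with 2 and 1 at 0, and 11 osteoblast lineage markers to 2018 and 3108 CPM, with 2 and 0 at 0. In cluster 0, described next, the osteoblast lineage markers were at 1830 and 3939 CPM and the chondrocyte markers at 257 and 142 CPM, and their part in the collagen ratios was not tested.

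The fibroblast-like class held 4 clusters in unequal proportions, and this bears on each of its ratios. Cluster 0, led by Pcp4, Mfap4 and Wif1, held 89 of the control and 114 of the OTM cells. It scored higher for chondrocyte markers (1.152) than for fibroblast markers (1.005), but too few chondrocyte markers were detected to give that name. Cluster 7, led by Aspn and Postn, held 30 and 268 cells. Clusters 11 (162 cells, led by Ccn5, Timp1 and Mmp13) and 16 (30 cycling cells) came from the OTM library only. Ratios are therefore given for the class and for clusters 0 and 7 alone.

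Levels are CPM of the class sum, with UMIs in brackets where they are few. Ratios are OTM over control on the log2 scale with an exact 95% conditional binomial interval that covers counting error only, not the spread between cells or mice. A gene was compared in a class where at least 10 UMIs would be expected in each library at equal CPM, and was counted as higher or lower at a 2-fold difference. With 1 library per group this is a description without a test. In a class sum, fewer cells with a transcript and fewer copies per cell cannot be told apart, so values per cell are given for the main genes.

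The collagen family made up almost the same part of both libraries, 39923 and 40077 CPM, but its makeup differed. Fibrillar chains made up 95.5% of collagen UMIs in the control and 89.6% in the OTM library, at 38146 and 35907 CPM. Type IV chains were at 192 and 847 CPM, 2.14 (2.05 to 2.23) on the log2 scale. Type VI chains were at 410 and 1260 CPM, and the multiplexins at 75.4 and 365 CPM. Endothelial-like cells were 4.02% of control and 14.4% of OTM cells, and the 12 endothelial markers, none at 0, summed to 509 and 1433 CPM over the whole libraries. Within endothelial-like cells type IV chains had a log2 ratio of 0.58 and multiplexins 0.93, both under 2-fold. These values rest on 14 control cells. Without the top cells the log2 ratios there were 1.23 for Col4a1, 0.77 for Col4a2, and 1.38 for both Col15a1 and Col18a1. All but that of Col4a2 are past 2-fold. Over the whole libraries FACIT chains were at 867 and 1547 CPM, under 2-fold apart. Network chains went the other way, at 108 and 40.5 CPM, -1.41 (-1.55 to -1.27) on the log2 scale. The near equality of the sums rests in part on 1 control cell that held 18.3% of all control collagen UMIs. Without the cell with the most collagen UMIs in each library the log2 ratio of the sums was 0.22, against 0.0055 with it. Over the whole library 33 members could be compared, of which 9 were at least 2-fold higher (5.43% of all genes compared were) and 7 at least 2-fold lower (6.97%). Among the 7 are Col13a1 and Col11a2, for each of which 1 control cell held a large part of the UMIs, as given below.

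**Figure D1:**
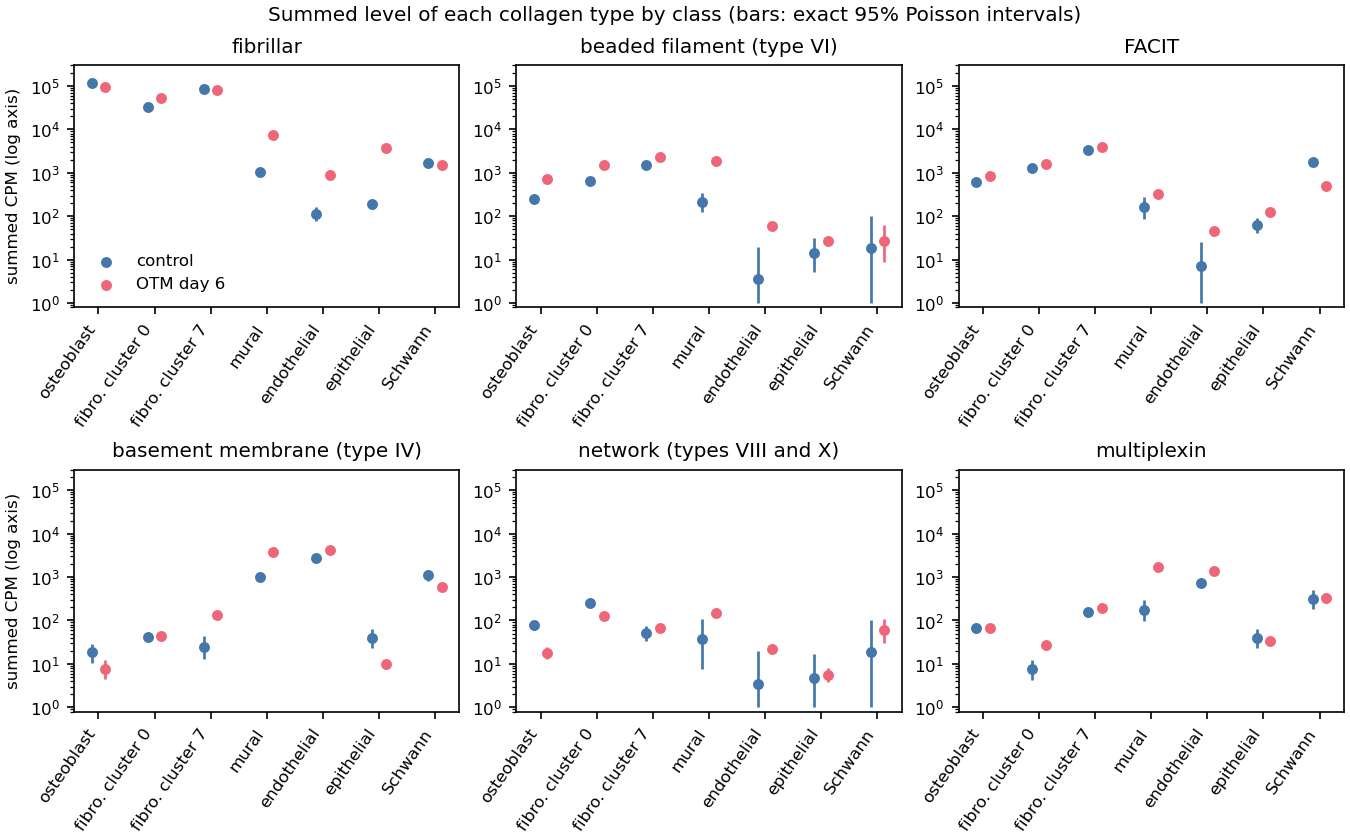
Summed CPM (log axis) of 6 collagen types in 7 classes, control in blue and OTM day 6 in red, with exact 95% Poisson intervals as bars; values below 1 CPM are drawn at 1. Fibrillar sums are highest in osteoblast lineage-like cells and fibroblast cluster 7, type IV sums in endothelial-like and mural-like cells, and type VI sums are higher in the OTM library in the osteoblast lineage-like class and both fibroblast clusters.

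Over stromal cells, 29 of the 39 members could be compared. Of these, 10 were at least 2-fold higher in OTM, where 5.32% of the 12101 genes compared in stromal cells were higher, and 6 were at least 2-fold lower, where 4.48% were lower. The members' median log2 ratio was 0.77, beside 0.0099 over all genes compared. The higher genes were Col3a1, Col5a3, Col4a1, Col4a2, Col6a1, Col6a2, Col6a3, Col12a1, Col15a1 and Col18a1. The lower genes were Col11a2, Col22a1, Col9a2, Col9a3, Col8a1 and Col8a2. In 12 other ways of processing, 11 of these 16 genes stayed past 2-fold each time. These settings compare all stromal cells together and so do not bear on the mix of clusters. Of the 11, Col5a3 and Col18a1 were past 2-fold in both fibroblast cluster 0 and cluster 7. Col3a1, Col6a2 and Col12a1 were past 2-fold in neither. The 10 members that could not be compared in stromal cells were Col4a3, Col4a4, Col4a5, Col4a6, Col6a6, Col9a1, Col10a1, Col14a1, Col17a1 and Col28a1. Of them, Col10a1 had 9 UMIs in both libraries together, Col4a3 13 and Col4a6 17.

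In the fibroblast-like class 26 members could be compared, and 15 were at least 2-fold higher and 3 lower, with 5.52% of 11270 genes called in each direction. The count depended on the mix of clusters. In cluster 0 alone 7 of 23 members were higher (2.51% of genes) and 2 lower (3.85%). Of the 7, Col11a2 had 95.1% of its OTM UMIs in 1 cell and Col16a1 35.7%. Without the top cells Col16a1 was at 0.69 on the log2 scale and Col11a2 could not be compared, while the others stayed past 2-fold. In cluster 7 alone 5 of 21 members were higher (6.21%) and 0 lower (1.42%). Col5a3 and Col18a1 were past 2-fold higher in both clusters. In osteoblast lineage-like cells 7 of 21 members were higher (3.89% of 7974 genes) and 1 was lower (1.64%), but only 1 was higher under 4 other settings: no cell filter, coarser or finer clustering, and thinning of each cell to 1500 UMIs.

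**Figure D2:**
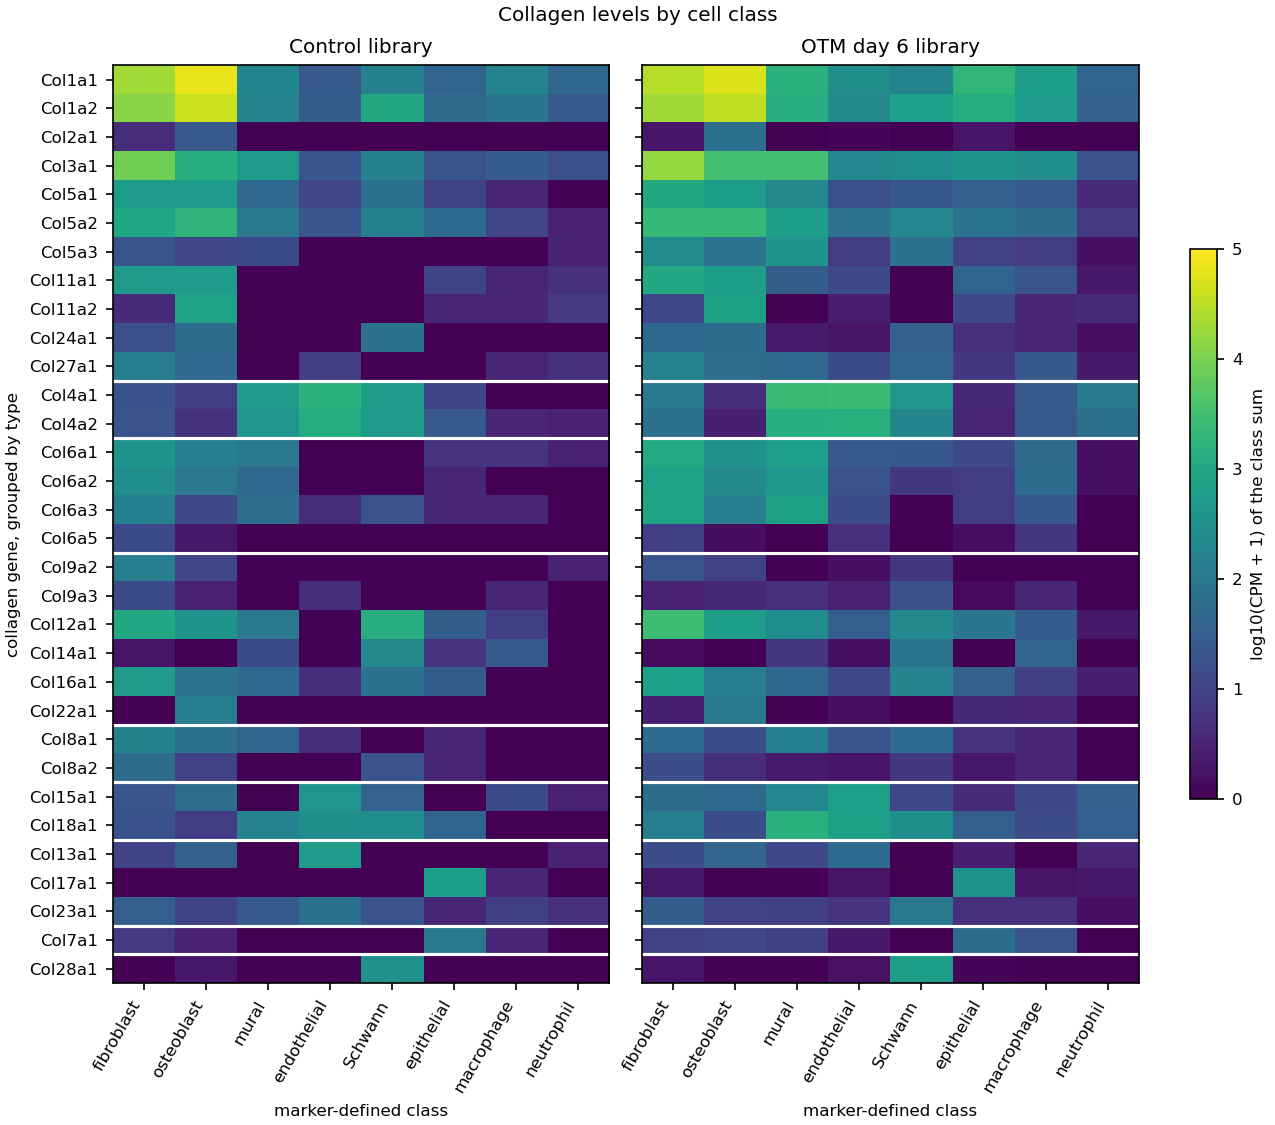
Level of each collagen gene with at least 100 UMIs over both libraries, as log10(CPM + 1) of the class sum, in 8 marker-defined classes of the control (left) and OTM day 6 library (right); white lines separate collagen types. Col1a1 and Col1a2 are highest in osteoblast lineage-like cells, Col3a1 in fibroblast-like cells, Col4a1 and Col4a2 in endothelial-like cells, Col17a1 and Col7a1 in epithelial-like cells and Col28a1 in Schwann-like cells.

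Among fibrillar chains, Col1a1 (chr11:94936224-94953042, plus strand, GRCm38) and Col1a2, the 2 chains of collagen I, were the most abundant collagen transcripts. Osteoblast lineage-like cells had the highest levels of Col1a1 of any class, 68321 and 54323 CPM. A single cell held 38.6% of the control UMIs there, and without the top cell in each library the log2 ratio moved from -0.33 to -0.03. Fibroblast-like cells had 20343 and 28531 CPM, 0.49 (0.47 to 0.50) on the log2 scale. Within clusters the values were 16314 and 25761 CPM in cluster 0 and 36737 and 33317 CPM in cluster 7, so neither cluster was 2-fold apart. In cluster 0 the medians per cell were closer, 8189 and 9396 CPM, and 1 OTM cell held 24.6% of the UMIs. For its partner Col1a2 the log2 ratio was 0.62 in cluster 0, -0.08 in cluster 7 and -0.29 in osteoblast lineage-like cells.

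The ratio of Col1a1 to Col1a2 UMIs was nearly the same across the cells that make collagen I. It was 1.65 in the control and 1.61 in the OTM osteoblast lineage-like cells, 1.56 and 1.61 in cluster 0, 1.55 and 1.48 in cluster 7, and 1.51 in cluster 11. Collagen I is mostly made of Col1a1 and Col1a2 chains at 2 to 1. These ratios are of 3′ UMIs, which count molecules without regard to length but are not corrected for how well each 3′ end is captured, so they are compared between classes and not with that stoichiometry. Schwann-like cells, the glia of peripheral nerves, stood apart: Col1a1 per Col1a2 was 0.13 (0.055 to 0.28) in 4 control cells and 0.27 (0.18 to 0.40) in 15 OTM cells. Their Col1a2 was at 1106 (60 UMIs) and 673 CPM (122 UMIs), against 148 and 182 CPM of Col1a1.

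**Figure D3:**
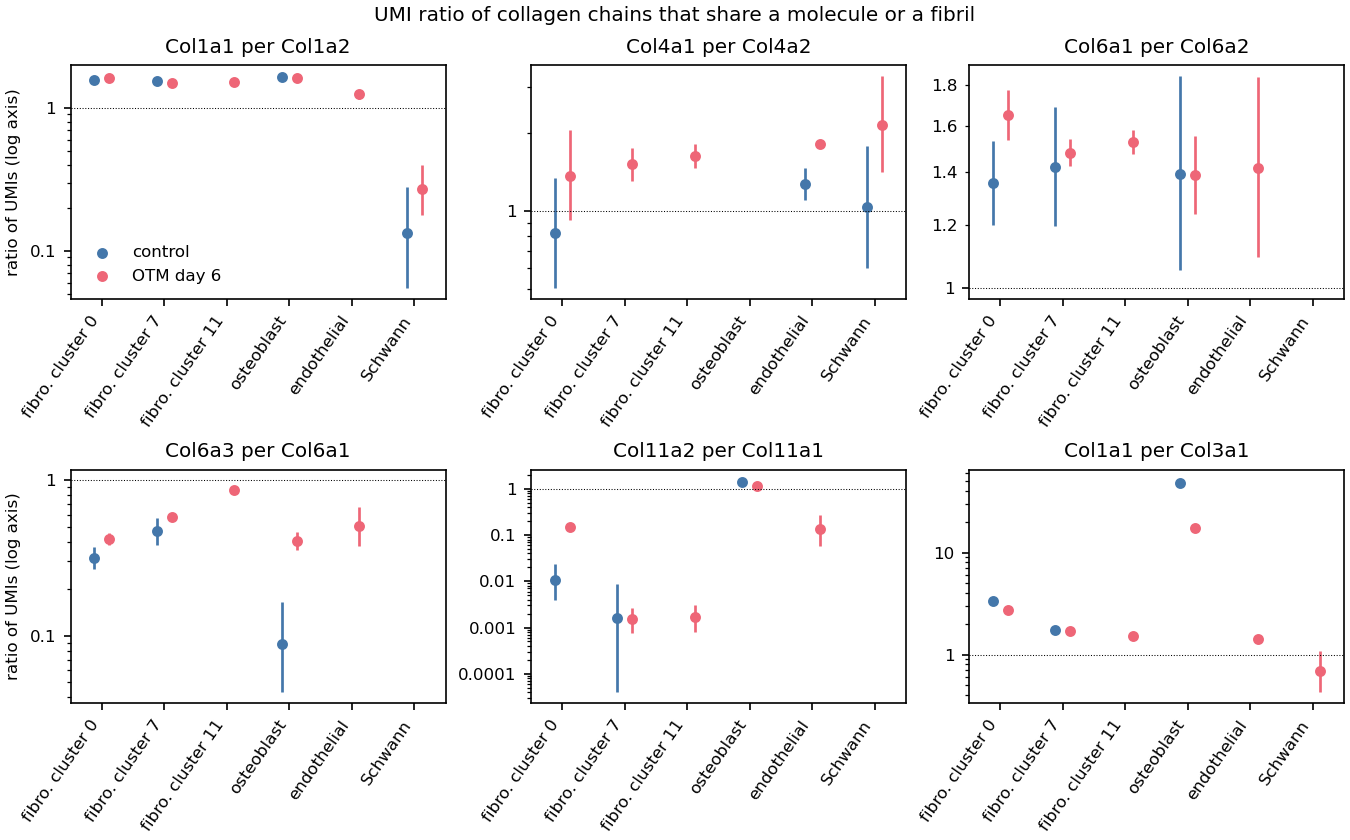
Ratio of UMIs (log axis) between pairs of collagen chains in 6 classes or clusters, control in blue and OTM day 6 in red, with exact 95% intervals for counting error; pairs with under 20 UMIs in all are left out and the dotted line marks 1. Col1a1 per Col1a2 lies between 1.24 and 1.65 in the groups drawn other than Schwann-like cells, while Col6a3 per Col6a1 is higher in the OTM library in the 3 groups where both libraries are drawn.

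Col3a1, the single chain of collagen III, which mixes with collagen I in elastic and newly laid tissue, differed between clusters. Fibroblast-like cells had 8084 and 16338 CPM, 1.02 (0.99 to 1.04) on the log2 scale. Cluster 0 was at 4925 and 9453 CPM, 0.94 (0.91 to 0.97) on the log2 scale. Cluster 7 was already at 20940 CPM in the control and had 19536 CPM in the OTM library, -0.10. on the log2 scale Medians per cell in cluster 7 were 17639 and 17582 CPM, and in cluster 0 they were 3605 and 5231 CPM. In osteoblast lineage-like cells Col3a1 was at 1409 and 3141 CPM, 1.16 (1.07 to 1.24) on the log2 scale. This was past 2-fold in 6 of 12 other settings and -0.29 with each library clustered alone, where the control class held 86 cells and not 34. Col1a1 per Col3a1 in the osteoblast lineage-like cells of the main clustering was 48.5 in the control and 17.3 in the OTM library. In cluster 7 it was 1.75 and 1.71.

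Col5a3, a minor chain of collagen V found in small amounts beside the Col5a1 and Col5a2 chains, showed the largest ratio of the stromal comparison. Stromal cells had 16.8 CPM (58 UMIs) and 245 CPM (4392 UMIs), 3.86 (3.49 to 4.26) on the log2 scale. Within classes, the log2 ratio was 5.56 (3.03 to 10.89) in cluster 0, where the control had 1 UMI, 1.18 (0.76 to 1.64) in cluster 7 and 2.89 (1.98 to 3.98) in osteoblast lineage-like cells. In each of these groups the OTM level was the higher. The osteoblast value was past 2-fold in 9 of 12 other settings, from 0.63 to 4.32. Cluster 11, absent from the control, had the highest level of any cluster, 439 CPM, and mural-like cells had 390 CPM in the OTM library. The share of cells with a Col5a3 UMI was 1.12% and 16.7% in cluster 0, 46.7% and 58.6% in cluster 7, and 86.4% in cluster 11. After thinning each cell to 1500 UMIs these shares were 0% and 2.68%, 14.8% and 18.1%, and 36.0%. Neutrophil-like cells, which should lack the gene, had it in 2.63% of control and 0.617% of OTM cells, and in none after thinning.

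The Col5a3 promoter is shown because this gene had the largest ratio among stromal members. The 250 bases before its RefSeq start (chr9:20815068-20815317, minus strand, GRCm38.p6) are written 5′ to 3′, with matches to CCAAT and GGGCGG on either strand in capitals.
Col5a3: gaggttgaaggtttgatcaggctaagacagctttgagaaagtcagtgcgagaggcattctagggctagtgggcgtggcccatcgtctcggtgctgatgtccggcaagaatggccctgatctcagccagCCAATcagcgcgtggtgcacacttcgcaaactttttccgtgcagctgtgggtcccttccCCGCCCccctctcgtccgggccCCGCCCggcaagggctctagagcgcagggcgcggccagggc
Col6a3: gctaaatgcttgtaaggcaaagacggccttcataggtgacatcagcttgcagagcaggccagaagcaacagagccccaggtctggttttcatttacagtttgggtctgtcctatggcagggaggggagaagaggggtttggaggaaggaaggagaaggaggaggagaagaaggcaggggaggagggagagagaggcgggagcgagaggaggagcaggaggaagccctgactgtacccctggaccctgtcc
The second window is that of Col6a3 (chr1:90843972-90844221, minus strand), the type VI chain with the largest ratio. The Col5a3 window held 1 CCAAT match and 2 GGGCGG matches, and no TATAAA. In the Col6a3 window none of the 3 motifs matched. RefSeq promoter windows were found for 31 of the 39 members, 34 windows in all. A member was counted once if any of its windows matched, while the share over all promoters is per window, so the units differ. CCAAT was in 11 members (35.5%) and in 33.8% of all 32851 promoter windows, TATAAA in 5 (16.1%) and 12.4%, and GGGCGG in 19 (61.3%) and 32.7%, counting both strands. A match describes the letters and not a bound site.

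Col5a1 and Col5a2, the main chains of collagen V, which sets fibril diameter, differed less. In fibroblast-like cells Col5a1 was at 523 and 1097 CPM and Col5a2 at 992 and 2244 CPM, log2 ratios of 1.07 (0.99 to 1.15) and 1.18 (1.12 to 1.24). Both were under 2-fold within cluster 0 (0.58 and 0.86) and cluster 7 (0.08 and 0.43), and in osteoblast lineage-like cells (0.12 and 0.32). The fibroblast-like calls for these genes stand beside a larger share of OTM cells in clusters 7 and 11, whose OTM levels of Col5a1 were 1110 and 1356 CPM, against 587 CPM in cluster 0. The part of this mix in the class ratios was not tested. The ratio within each cluster leaves out the mix of clusters, but not shifts within a cluster, such as those of the markers given above for cluster 0. Col3a1 lies beside Col5a2 on chromosome 1, on the opposite strand, with 24614 bases between them.

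Of the collagen XI chains, which sit inside fibrils, Col11a2 and not Col11a1 was mostly found in osteoblast lineage-like cells. Col11a1 was at 284 and 369 CPM in cluster 0, 1312 and 1235 CPM in cluster 7, and 564 and 607 CPM in osteoblast lineage-like cells. For Col11a2, osteoblast lineage-like cells held 98.3% of the control UMIs and 85.3% of the OTM UMIs, at 775 and 685 CPM. Col11a2 per Col11a1 was 1.37 and 1.13 there and 0.0016 and 0.0015 in cluster 7. The stromal ratio of Col11a2, -1.15 (-1.27 to -1.02), stands beside an osteoblast lineage-like ratio of -0.18, and these cells were 34 of 159 stromal cells in the control and 89 of 689 in the OTM library. A single control cell held 40.6% of the stromal Col11a2 UMIs, and without the top cells the stromal ratio was -0.61, under 2-fold. The 2-fold call of Col11a2 in fibroblast-like cells rested on 1 OTM cell with 81.1% of its UMIs, and without the top cells the log2 ratio was 0.07.

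Other fibrillar chains were low. Col24a1 was at 16.0 and 46.5 CPM in fibroblast-like cells, 1.54 (1.08 to 2.05) on the log2 scale, with 13 and 36 UMIs in cluster 0, 1.08 (0.13 to 2.12) on the log2 scale, and at 54.0 and 61.7 CPM in cluster 7 (0.19). Col27a1 was at 125 and 161 CPM in fibroblast-like cells (0.36). Col2a1, the cartilage collagen, reached 23.8 CPM (22 UMIs) and 70.1 CPM (156 UMIs) in osteoblast lineage-like cells, with 68.2% and 59.0% of the UMIs in 1 cell, and its direction turned under 5 other settings.

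**Figure D4:**
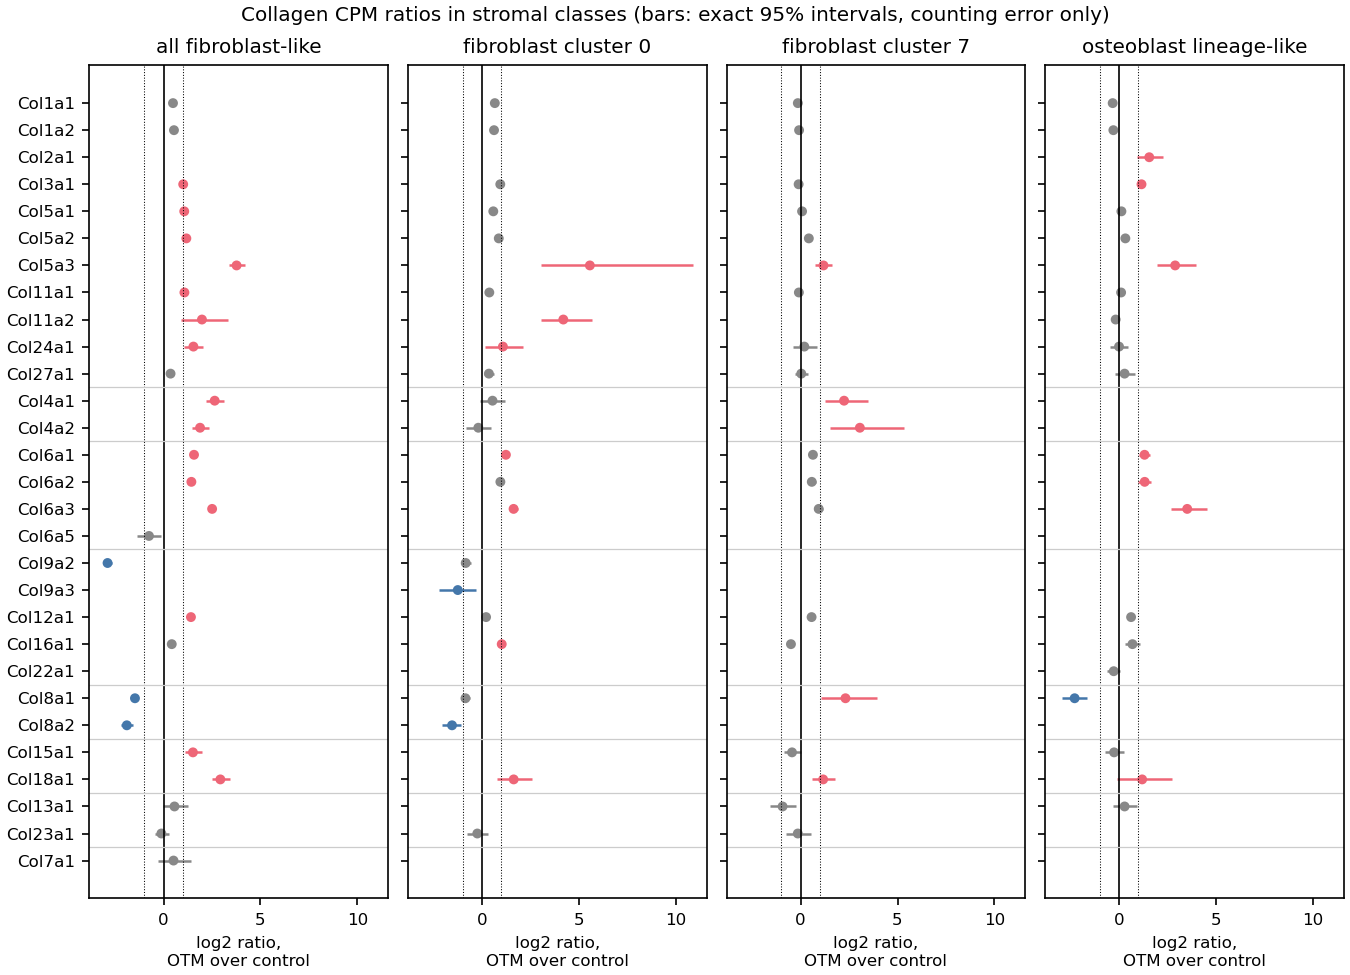
Log2 ratio of OTM over control CPM of each member where it could be compared, in all fibroblast-like cells, fibroblast clusters 0 and 7 and osteoblast lineage-like cells; bars are exact 95% intervals for counting error, dotted lines mark 2-fold, and red and blue points are at least 2-fold higher and lower. In all fibroblast-like cells 15 members are red and 3 blue, in cluster 7 alone 5 are red and 0 blue.

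Type VI collagen was higher in the OTM library in fibroblast cluster 0 and in osteoblast lineage-like cells. In cluster 0 the osteoblast lineage markers were also higher, as given above. The 3 main chains of collagen VI assemble with each other into 1 molecule. In cluster 0 Col6a1 was at 318 and 747 CPM, 1.23 (1.10 to 1.36) on the log2 scale, Col6a2 at 235 and 452 CPM (0.95) and Col6a3 at 101 and 312 CPM, 1.63 (1.40 to 1.86) on the log2 scale. In cluster 7 the same genes had log2 ratios of 0.64, 0.58 and 0.94, each under 2-fold. A single control cell held 23.7% of the Col6a3 UMIs of cluster 7. Without the top cells the log2 ratios there were 0.83, 0.71 and 1.12 (0.86 to 1.40), the last past 2-fold. In osteoblast lineage-like cells the 3 genes had 1.31 (1.04 to 1.60), 1.32 (0.99 to 1.66) and 3.51 (2.65 to 4.53), the last on 11 control UMIs. Over the 12 other settings the osteoblast value of Col6a3 stayed past 2-fold, from 1.53 to 6.18. That of Col6a1 ran from 0.42 to 2.61 and was past 2-fold in 7 settings. That of Col6a2 ran from 0.36 to 2.60 and was past 2-fold in 8. The median osteoblast lineage-like cell had no Col6a3 UMI in either library. The share of these cells with a UMI was 20.6% and 33.7%, or 2.94% and 9.09% after thinning, and 1 OTM cell held 29.0% of the UMIs. Among fibroblast clusters, levels were highest in cluster 11, with 1516 CPM of Col6a1, 993 CPM of Col6a2 and 1308 CPM of Col6a3.

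Col6a3 per Col6a1 was higher in the OTM library in clusters 0 and 7 and in osteoblast lineage-like cells. The intervals in cluster 7 overlapped, and the osteoblast control value rests on few Col6a3 UMIs, as given above. Col6a1 per Col6a2 was 1.36 and 1.65 in cluster 0, 1.42 and 1.48 in cluster 7, and 1.39 and 1.39 in osteoblast lineage-like cells. Col6a3 per Col6a1 was 0.32 and 0.42 in cluster 0, 0.47 (0.38 to 0.57) and 0.58 (0.55 to 0.60) in cluster 7, and 0.089 (0.043 to 0.16) and 0.41 (0.36 to 0.47) in osteoblast lineage-like cells. It was 0.86 in cluster 11. Per cell, the median Col6a3 level was 88.2 and 138 CPM in cluster 0, 101 and 293 CPM in cluster 7, and 933 CPM in cluster 11, where 99.4% of cells had a UMI. After thinning, the shares of cells with a UMI were 16.9% and 28.6%, 22.2% and 41.2%, and 68.9%. Col6a1 and Col6a2 lie in the same orientation on chromosome 10, 85161 bases apart, and Col6a3 lies on chromosome 1. Col6a5 and Col6a6, alternative chains to Col6a3, were sparse. Col6a5 had 30 control UMIs in fibroblast-like cells, 93.3% of them in 1 cell.

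**Figure D5:**
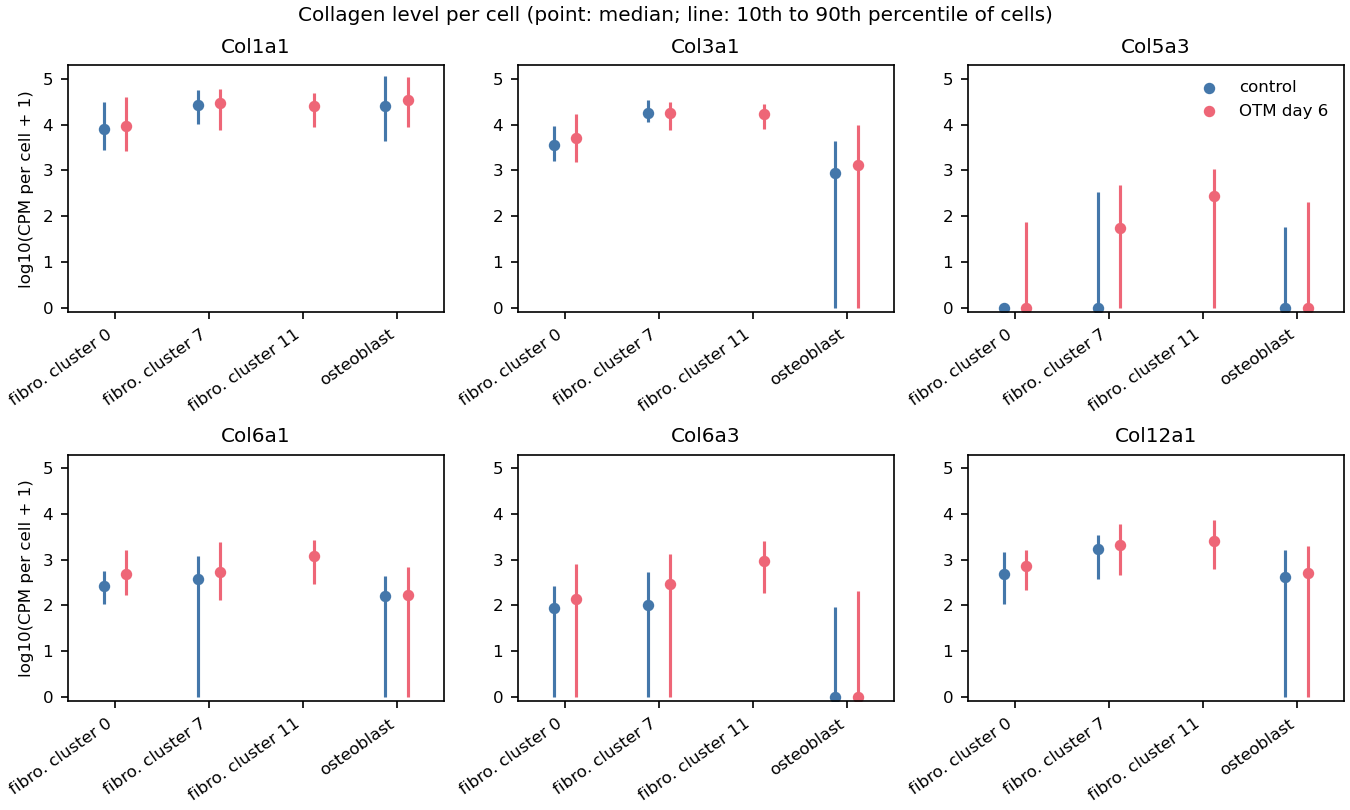
Per-cell level, log10(CPM + 1), of 6 members in fibroblast clusters 0, 7 and 11 and in osteoblast lineage-like cells, control in blue and OTM day 6 in red; points are medians over cells and lines run from the 10th to the 90th percentile. Cluster 11 has OTM cells only. Col3a1 medians of cluster 7 nearly coincide (17639 and 17582 CPM), and the Col6a3 median is highest in cluster 11, at 933 CPM.

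Type IV collagen was mainly a product of vessel cells. Endothelial-like cells held 77.5% of the control and 80.1% of the OTM UMIs of Col4a1, at 1550 and 2662 CPM, 0.78 on the log2 scale, and Col4a2 was at 1223 and 1471 CPM (0.27). The control values rest on 14 cells, of which 1 held 36.4% of the Col4a1 UMIs. Medians per cell were 517 and 2128 CPM, and without the top cells the log2 ratio of Col4a1 was 1.23, past 2-fold. Mural-like cells had 584 (47 UMIs) and 2350 CPM. Fibroblast-like cells had far less, 16.8 (41 UMIs) and 105 CPM of Col4a1 and 17.6 and 65.0 CPM of Col4a2, log2 ratios of 2.64 (2.19 to 3.12) and 1.88 (1.44 to 2.36). In cluster 0 the values were 0.54 and -0.19. In cluster 7 the log2 ratios were 2.24 (1.25 to 3.46) and 3.06 (1.5 to 5.34), on 8 and 3 control UMIs, and cluster 11 had 165 and 101 CPM. The share of cluster 7 cells with a Col4a1 UMI was 10.0% and 26.5%, but 7.41% and 6.54% after thinning. Endothelial markers summed to 18.7 CPM with 8 of 12 at 0 and 28.7 CPM with 2 at 0 in cluster 7, and their part in the Col4a1 level was not tested.

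Col4a1 and Col4a2, the chains of the common basement membrane molecule, start from opposite strands of chromosome 8 with 21 bases between their starts and 22 bases in common. These bases are shown because both genes share them (chr8:11312805-11312826, GRCm38.p6), read along each gene's own strand with the GGGCGG match in capitals.
Col4a1: ttggagacgCCGCCCgcgcact
Col4a2: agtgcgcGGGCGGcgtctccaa
The chains were not counted in a fixed ratio. Col4a1 per Col4a2 was 1.27 (1.10 to 1.46) in the control and 1.81 (1.76 to 1.86) in the OTM endothelial-like cells, and 1.47 (0.92 to 2.38) and 1.72 (1.60 to 1.86) in mural-like cells. In cluster 11 it was 1.63. Col4a5, a minor type IV chain, was at 37.3 (3 UMIs) and 31.2 CPM (24 UMIs) in mural-like cells.

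Among FACIT chains, Col12a1, a coat protein of stressed ligament and tendon fibrils, was the most abundant. Fibroblast-like cells had 1036 and 2762 CPM, 1.41 (1.36 to 1.47) on the log2 scale. The clusters were each under 2-fold, with 795 and 919 CPM in cluster 0 (0.21) and 2016 and 2989 CPM in cluster 7 (0.57), and cluster 11 had 3423 CPM. Col16a1 was at 303 and 611 CPM in cluster 0, where 1 OTM cell held 35.7% of the UMIs, and at 1254 and 889 CPM in cluster 7. Without the top cells its log2 ratio in cluster 0 was 0.69, under 2-fold. Col14a1, often paired with Col12a1 on tendon fibrils, was almost undetected in fibroblast-like cells, with 2 and 6 UMIs. Macrophage-like cells held 10 of its 29 control and 47 of its 106 OTM UMIs, and Schwann-like cells 12, all in 1 cell, and 15.

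Collagen IX and XXII were lower over stromal cells. Col9a2, a chain of the cartilage FACIT, was at 139 and 18.8 CPM in fibroblast-like cells, -2.89 (-3.12 to -2.65) on the log2 scale. Cluster 0 had most of these transcripts, at 149 and 83.1 CPM, under 2-fold apart (-0.84), where the chondrocyte markers were also lower, at 257 and 142 CPM. The part of chondrocyte-marker transcripts in the Col9a2 ratio was not tested. In cluster 7 it was at 99.6 and 8.48 CPM, but 1 control cell held 79.2% of the UMIs. Col9a3 was at 14.8 (29 UMIs) and 6.21 CPM (16 UMIs) in cluster 0, and Col9a1 had 11 and 3 UMIs. Col22a1, known from tissue junctions, was found in osteoblast lineage-like cells, which held 94.4% and 83.6% of its UMIs at 128 and 106 CPM (-0.28). Its stromal ratio was -1.24 (-1.56 to -0.92), beside the smaller osteoblast share of stromal cells given above for Col11a2.

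The network chains of collagen VIII, a short-chain collagen of vessel walls and subendothelial sheets, were lower in the OTM library over stromal cells. The sum of network chains was at 172 and 68.0 CPM there, but was not lower in every class. Within cluster 0 (-0.99) and cluster 7 (0.38) it was under 2-fold apart. In mural-like cells it was higher, at 37.3 (3 UMIs) and 151 CPM. Endothelial-like cells had 3.52 (1 UMI) and 21.5 CPM, too few UMIs to compare. The part of the cluster mix in the class ratios was not tested. Col8a2 was at 56.5 and 15.2 CPM in fibroblast-like cells, -1.89 (-2.21 to -1.58) on the log2 scale, and at 60.2 and 20.6 CPM in cluster 0, -1.55 (-2.04 to -1.07) on the log2 scale. Col8a1 was at 154 and 55.6 CPM in fibroblast-like cells (-1.47), at 190 and 105 CPM in cluster 0 (-0.86) and at 70.4 and 14.4 CPM in osteoblast lineage-like cells, -2.29 (-2.95 to -1.66) on the log2 scale on 65 and 32 UMIs. It went the other way in cluster 7, at 10.4 (5 UMIs) and 51.7 CPM, 2.32 (1.08 to 3.95) on the log2 scale. Col8a2, too sparse there to be compared, was at 41.5 (20 UMIs) and 15.4 CPM in cluster 7.

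The multiplexin sum was higher in fibroblast-like cells (2.33 on the log2 scale), but not in every class. In cluster 7 alone it was 0.35, in osteoblast lineage-like cells -0.03 (67.2 and 65.6 CPM) and in epithelial-like cells -0.25. Col18a1, the source of endostatin, was at 16.8 (41 UMIs) and 128 CPM in fibroblast-like cells, 2.93 (2.49 to 3.42) on the log2 scale. Cluster 0 had 1.63 (0.77 to 2.59), cluster 7 1.16 (0.61 to 1.78) and cluster 11 a level of 199 CPM. In endothelial-like cells it was at 310 and 680 CPM, 1.13 (0.83 to 1.46) on the log2 scale, and it stayed past 2-fold there under 12 other settings. Col15a1 was at 402 and 672 CPM in endothelial-like cells (0.74), where 1 control cell held 43.9% of the UMIs and the ratio without the top cells was 1.38, past 2-fold. In fibroblast-like cells it was at 20.1 and 57.4 CPM (1.52), with -0.44 in cluster 7.

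In endothelial-like cells 9 members could be compared, and 5 were higher (6.37% of 4663 genes) and 1 lower (4.12%). Of the higher genes, Col1a1, Col1a2, Col3a1 and Col5a2 are fibrillar chains at low levels. Col1a1 was at 24.7 CPM (7 UMIs) and 298 CPM, with 53.5% of the OTM UMIs in 1 cell, and its direction turned under 3 other settings. In the OTM library 49.8% of endothelial-like cells had a Col1a1 UMI, and 6.5% after thinning. Neutrophil-like cells had one in 30.9% of OTM cells and 6.88% after thinning, near the endothelial share after thinning. The fibrillar sum in the OTM library was 875 CPM in endothelial-like and 109 CPM in neutrophil-like cells. The source of these transcripts was not tested. The lower gene was Col13a1, a transmembrane collagen, at 553 and 55.9 CPM, with 98.7% of the control UMIs in 1 cell. Without the top cells its log2 ratio was 2.64.

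Mural-like cells, with 6 control cells and 215 control collagen UMIs, had all 15 members compared at 2-fold higher or more, where 19.5% of 1455 genes were higher and 6.67% lower. Col15a1, with 0 control and 164 OTM UMIs, was set against a floor of 3 UMIs. A single control cell held 65.1% of the control collagen UMIs. Endothelial markers in these cells summed to 261 CPM with 10 of 12 at 0 in the control and 2192 CPM with none at 0 in the OTM library, and their part in the ratios was not tested.

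Epithelial-like cells were marked by 2 collagens of epithelial attachment. Col17a1, the hemidesmosome collagen, was at 639 and 350 CPM, and these cells held 98.9% and 98.8% of its UMIs. Col7a1, the anchoring fibril chain, was at 99.7 (42 UMIs) and 57.7 CPM. Both levels were under 2-fold apart. Of 11 members compared, 6 were higher in these cells (7.24% of 5483 genes) and 0 lower (5.6%). The higher members included Col1a1, with 40.4 and 1896 CPM, of which 1 OTM cell held 55.5%. Col28a1, a collagen of peripheral nerve, was at 332 (18 UMIs) and 601 CPM (109 UMIs) in Schwann-like cells, and fibroblast-like cells had 0 and 14 UMIs. A single control cell held 72.2% of these 18 UMIs. Col23a1, a further transmembrane collagen, was at 31.5 and 29.2 CPM in fibroblast-like cells.

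Blood cells showed the level at which collagen transcripts appear outside connective tissue. In macrophage-like cells 7 members could be compared, and 6 were higher (16.1% of 5182 genes) and 0 lower (6.95%). Their Col1a1 was at 170 and 619 CPM, with 89.6% of the OTM UMIs in 1 cell. Without the top cells 3 of these genes kept enough UMIs to be compared, none of them 2-fold higher, and Col1a1 was lower, at -1.14. In neutrophil-like cells 6 could be compared, and 4 were higher (11.5% of 4328 genes) and 0 lower (1.18%). These 4 were Col4a1, Col4a2, Col15a1 and Col18a1, and 1 cell held 82.3% of the 192 OTM UMIs of Col4a1. Endothelial markers in neutrophil-like cells summed to 19.1 CPM with 10 of 12 at 0 and to 374 CPM with none at 0, and their part was not tested. Without the top cells none of the 4 genes had enough UMIs to be compared.

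Other genes of the collagen pathway were counted from 4 lists, beside the 5.52% of all genes called in each direction in fibroblast-like cells. Of 18 genes for chain synthesis and folding, 17 could be compared in fibroblast-like cells and 1 was higher (5.88%, near the share of all genes), P4ha3, a prolyl 4-hydroxylase subunit, with 88 and 1478 UMIs (1.46). Serpinh1, the collagen chaperone HSP47, was at 2061 and 2819 CPM (0.45) and Ppib, a prolyl isomerase, at 903 and 1108 CPM (0.29). In cluster 0, cluster 7 and osteoblast lineage-like cells none of the 17 was 2-fold apart. Of 12 genes for propeptide processing and cross-linking, 9 could be compared and 4 were higher, among them the cross-linking oxidases Lox, at 106 and 341 CPM (1.69), and Loxl2, at 79.5 and 178 CPM (1.16). Lox was under 2-fold within cluster 0 (0.75) and cluster 7 (0.62).

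Receptors for collagen were mostly level. Of 8 genes, 7 could be compared in fibroblast-like cells and 1 was higher, Itga1 (5 and 104 UMIs), while Itgb1, the shared integrin beta chain, was at 548 and 768 CPM (0.49) and Ddr2, a receptor kinase for fibrillar collagen, at 106 and 104 CPM (-0.04). Of 10 matched genes of collagen degradation, 9 could be compared and 4 were higher. Mmp13, an interstitial collagenase, was 2-fold higher or more in cluster 0 (1.07), cluster 7 (3.30) and osteoblast lineage-like cells (4.87), and Timp1, an inhibitor of such enzymes, in the same 3 groups (1.60, 2.35 and 1.76). Both genes are among the leading genes of cluster 11. Ctsk, the collagen-cutting cathepsin, was at 672 and 762 CPM (0.18), and Mmp14 at 594 and 1038 CPM (0.81).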

How the data were processed

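Single-cell 3′ libraries were made from periodontal ligament pooled from 5 mice per group, 1 library each. The deposited values are UMI counts per gene and barcode, not normalized; the submitters' processing notes name Cell Ranger 7.0.1, Seurat, and the builds mm10 and GRCm38. Barcodes with at least 200 genes and at most 20% mitochondrial UMIs were kept (348 of 369 control, 1412 of 1539 OTM). Scrublet called 2 and 8 doublets, which were kept. With scanpy 1.11.5, 2000 variable genes without collagens, 30 components, 15 neighbours and Leiden resolution 1.0 gave 17 clusters, without batch integration. Clusters were named from 19 lists (170 markers) by mean score, with at least 3 detected markers.

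Counts were summed per class and library and divided by the class total. A sum of 0 was set to 3 UMIs for a ratio. Intervals are exact 95% (Poisson for sums, Clopper-Pearson for shares, conditional binomial for ratios) and cover counting error only. The ratio code was tested on simulated data. Shares of cells are also given after thinning to 1500 UMIs, leaving out 91 shallower cells. Named genes were the most abundant members of each type in stromal cells, those 2-fold apart in a class, and chain partners. Alternatives to the filter, clustering, scaling and count minimum were computed. The lower count minimum changes which genes are compared but no ratio, so in each count of settings for a single gene it repeats the main value. Scaling to UMIs outside collagen and mitochondrial genes shifts all ratios of a class by the same amount. Alternatives without the top cell or for single clusters were added after seeing the data. The members and lists were chosen with earlier results of these data known. The Mmp1a entry of the degradation list was not matched. Gene positions are from GENCODE M21 and promoters from RefSeq, GRCm38.p6.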

Additional observations from a re-analysis of the deposited data

Results flagged for a closer look

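Col8a1 differed between stromal classes in direction. Its log2 ratio of OTM over control was 1.95 in mural-like cells, -1.47 in fibroblast-like cells and -2.29 in osteoblast lineage-like cells. The difference between classes was not tested, and the mural-like control value rests on 3 UMIs from 1 of 6 cells.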

How the results depend on the processing

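No paired analysis was possible because each group is 1 library. The stromal counts of 10 higher and 6 lower genes stayed within 1.5 times in the planned settings, except that thinning to 1500 UMIs per cell left 1 lower gene. The fibroblast-like count of 15 higher genes was 8 when cells were classed one by one from their marker scores, 7 in cluster 0 and 5 in cluster 7, and that of 3 lower genes was 1 after thinning, 6 with 3 UMIs expected and 0 in cluster 7. Clustering each library alone gave no fibroblast-like class in the control and so no value. The control then had 86 osteoblast lineage-like, 53 mural-like, 27 endothelial-like and 84 unnamed cells, against 34, 6, 14 and 65 in the main clustering. Values under that setting therefore rest on control classes that hold partly other cells. The osteoblast count of 7 higher genes was 1 with no cell filter, at resolutions 0.5 and 2.0 and after thinning, 3 for the mean over cells and 11 by cell-wise scores; that of 1 lower gene was 4 with libraries clustered alone, 0 after thinning, and 2 for the mean over cells and with 3 UMIs expected. The endothelial count of 5 higher genes was 2 with no filter and with the stricter filter, 3 without doublets, 1 after thinning, 10 with 3 UMIs expected and 8 without the top cell; that of 1 lower gene was 4 with no filter and the stricter filter, 12 with libraries clustered alone, and 0 after thinning and without the top cell. The stromal collagen log2 ratio of 0.24 was 0.26 with no filter, 0.24 with the stricter filter, -0.22 at resolution 2.0, -0.073 by cell-wise scores, 0.27 with libraries clustered alone, 0.53 after thinning, 0.25 with CPM outside collagen and mitochondrial genes, 0.52 for the mean over cells and 0.43 without the top cell. The whole-library value of 0.0055 was 0.019 with no filter, -0.016 with the stricter filter, 0.47 after thinning, 0.58 for the mean over cells and 0.22 without the top cell. The cause was not tested.

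Of genes called 2-fold apart, 0 reversed in stromal cells, 3 in osteoblast lineage-like and 4 in endothelial-like cells over 12 planned settings, and 2 in fibroblast-like cells (Col11a2 and Col8a1) over 11. The added settings, single clusters or no top cell, reversed a further 4 in fibroblast-like cells and 1 in endothelial-like cells. In fibroblast-like cells the log2 ratio was -0.10 for Col3a1, -0.087 for Col11a1, -0.15 for Col11a2, 2.32 for Col8a1 and -0.44 for Col15a1 in cluster 7, and -0.19 for Col4a2 in cluster 0. Col11a2 was also -0.44 with collagens among the variable genes, -1.28 after thinning and -1.86 for the mean over cells, and Col8a1 was 0.21 at resolution 2.0. In osteoblast lineage-like cells Col2a1 was -2.85 with no filter, -1.06 with the stricter filter, -2.79 at resolution 2.0, -0.96 after thinning and -0.93 for the mean over cells, Col3a1 was -0.29 with libraries clustered alone and Col18a1 -1.79 after thinning. In endothelial-like cells, with no filter, the stricter filter and libraries clustered alone in that order, Col1a1 was -5.02, -5.09 and -5.69, Col1a2 -4.60, -4.72 and -5.40, and Col5a2 -1.42, -1.67 and -2.97; Col1a2 was -0.19 without doublets, Col3a1 -4.86 with libraries clustered alone and Col13a1 2.64 without the top cell. The 14 control endothelial-like and 6 mural-like cells limit what those classes can show. With libraries clustered alone, the control classes held partly other cells than these, as given above.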
